A study of Vitis vinifera with 27 samples.

Results

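VITVI11G00140 encodes an ALP1-like protein and was studied here as 1 gene of the 35134 in the count table, found by its identifier in upper case. It is one of the genes measured by qPCR in the study and was chosen by its RNA-Seq values at BBCH63, where it was lower in node 5 than in node 2. The levels of these nodes at BBCH63 are therefore a description and were not tested. The spread within groups at BBCH77 and BBCH90 was also known when the gene was selected and is given without a test. RNA-Seq was carried out on latent buds of Vitis vinifera cv. Merlot grafted onto Kober 5BB, taken at nodes 2, 5 and 10 of the shoot at BBCH63 (flowering), BBCH77 (cluster closure) and BBCH90 (harvest). Each of the 9 groups held 3 biological replicates, and each replicate pooled buds from 1 node position on vines of a single vineyard. No treatment was applied, and all groups share cultivar, rootstock and season.

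ALP1 proteins descend from the transposases of Harbinger-type DNA transposons that plants took over as genes of their own. In Arabidopsis, ALP1 was named as an antagonist of LIKE HETEROCHROMATIN PROTEIN 1, a protein that reads the histone mark laid down by Polycomb complexes, and it binds the Polycomb complex that writes this mark. In Arabidopsis, Polycomb silencing keeps the floral repressor gene FLC off after cold. The role of the grapevine protein is not known from these data.

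The only sequences at hand for this gene are the primers that the study designed to measure it by qPCR, which show the assay made on the transcript. They are 25 and 24 bases long, with a GC content of 44.0 and 50.0%, and no letters are set in capitals because none is singled out.
Forward primer: aagtgggctttggataatcagaacg
Reverse primer: ctctcactctcctccatttcacca

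Library totals ran from 34531620 to 53307172 counts. Values of single genes are given in CPM, the counts scaled to library size after TMM normalization of the 27 libraries. Some columns stood apart before any gene was examined. The column of BBCH90 node 10 replicate 3 held the same counts as BBCH63 node 2 replicate 2 at all 35134 genes, so it is no measurement of its own. It was left out of group comparisons together with replicate 3 of node 10 at the other stages, which leaves 24 libraries. Some other libraries were closer in profile to another group than to the one on their label, and 81.1% of genes had a narrower spread with the labels moved by 1 column, as described further on. The labels may therefore be displaced in the deposited table. The paper's supplement lists the most reads for BBCH77 node 5 replicate 3 and node 10 replicate 1. The largest column totals, 52887975 and 53307172 counts, are labelled BBCH77 node 5 replicates 2 and 3, the columns just before these. A displacement was not tested, and every value given by stage and node rests on the labels as deposited. If they are displaced, such a value may belong to another stage or node. Among the bud genes, VvVFL ranged from 2.13 to 12.7 CPM, VvSOC1 from 47.5 to 116 CPM and VvTFL1A from 0.0606 to 10.4 CPM in the 27 columns, so these markers of meristems and inflorescence primordia were detected, with VvTFL1A near its lowest in most libraries of BBCH90 (median 0.149 CPM).

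At BBCH63 the ALP1-like transcript was abundant in the basal buds and scarce higher on the shoot. The libraries of node 2 held 561, 326 and 330 CPM (replicates 1 to 3), from 20906, 12710 and 12989 counts. Those of node 5 held 39.5, 99.3 and 39.6 CPM. At node 10 there were 47.7 and 58.5 CPM in the kept libraries and 42.1 CPM in replicate 3. Every library of node 2 was thus above every library of nodes 5 and 10, while the ranges of nodes 5 and 10 overlapped. The means were 406 ± 135 CPM (SD, n = 3) at node 2, 59.5 ± 34.5 CPM (SD, n = 3) at node 5 and 53.1 ± 7.59 CPM (SD, n = 2) at node 10. In edgeR the fitted level was 6.82-fold lower at node 5 and 7.64-fold lower at node 10 than at node 2, with log2 fold changes of -2.77 (standard error 1.01) and -2.93 (standard error 1.19). In these contrasts 4.82 and 4.61% of the 22999 genes tested were DEGs in either direction. Whether VITVI11G00140 was itself a DEG in this fit is not stated, since its values at BBCH63 chose it. As whole buds were sequenced, fewer cells with the transcript and less transcript per cell cannot be told apart.

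**Figure D1:**
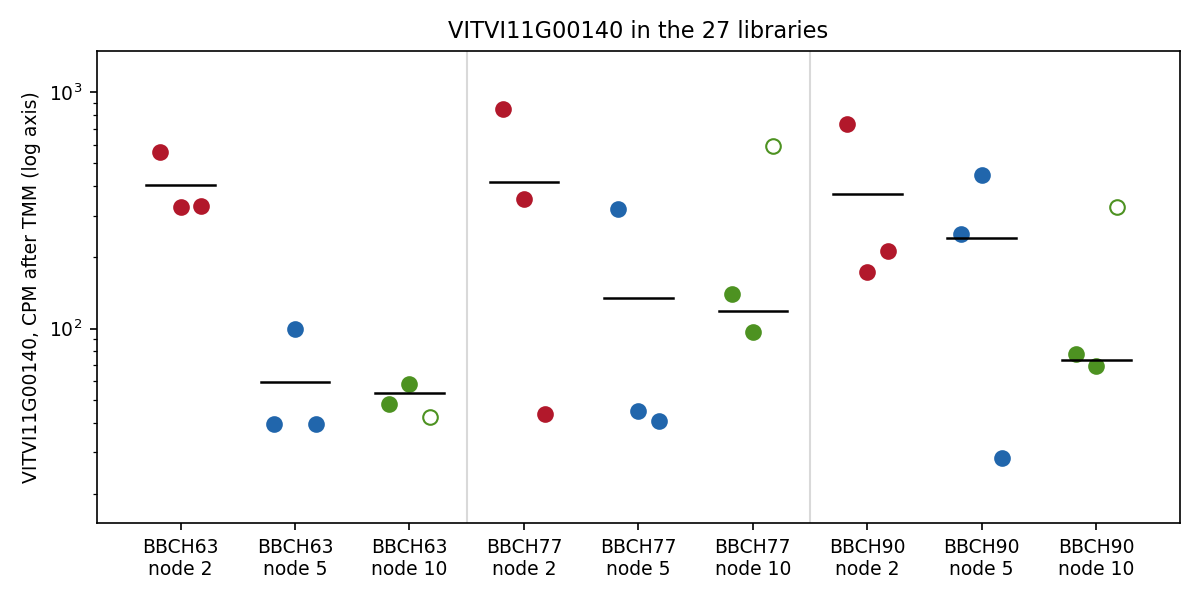
Expression of VITVI11G00140 in CPM after TMM normalization (log axis) in each of the 27 libraries by stage and node, with replicates 1 to 3 from left to right; open circles are the libraries left out of the tests and lines are the means of the kept ones. At BBCH63 the 3 libraries of node 2 lie at 326 to 561 CPM and all others of that stage at or below 99.3 CPM, whereas node 2 spans 43.4 to 850 CPM at BBCH77 and 173 to 733 CPM at BBCH90, and node 5 spans 40.7 to 320 and 28.2 to 446 CPM.

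At BBCH77 the separation of the nodes was lost in single libraries. Node 2 held 850, 352 and 43.4 CPM, a 19.6-fold range in which replicate 3 was as low as the buds of node 5. Node 5 held 320, 44.6 and 40.7 CPM. Its replicate 1 was near the 352 CPM of node 2 replicate 2, and 7.86 times the lowest of node 5. Node 10 held 140 and 96.2 CPM in the kept libraries, and 593 CPM in replicate 3, the one left out. In the lowest library of node 2 the transcript still had 1841 of 39998042 counts.

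At BBCH90 the spread was wide at node 5, narrower at node 2 than at BBCH77, and small in the kept libraries of node 10. Node 2 held 733, 173 and 213 CPM, with replicate 1 far above the others. Node 5 held 252, 446 and 28.2 CPM, a 15.8-fold range, and its replicate 3 was the lowest of all 27 columns with 964 counts. The kept libraries of node 10 were close to each other at 77.7 and 69.2 CPM and lay below all of node 2, but within the range of node 5. No gene of the 22999 was a DEG in node 10 vs node 2 at this stage (0% called), so the lack of overlap is given as a value.

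By their mean over the kept libraries, the groups ran from 415 ± 407 CPM (SD, n = 3) in BBCH77 node 2, 406 ± 135 CPM in BBCH63 node 2 and 373 ± 312 CPM (SD, n = 3) in BBCH90 node 2 to 242 ± 209 CPM (SD, n = 3) in BBCH90 node 5. These were followed by 135 ± 160 CPM (SD, n = 3) in BBCH77 node 5, 118 ± 31.2 CPM (SD, n = 2) in BBCH77 node 10 and 73.5 ± 6.06 CPM (SD, n = 2) in BBCH90 node 10. Nodes 5 and 10 at BBCH63 came last. Node 2 had the highest mean at each stage, yet every neighbour in this order differed by less than the larger of their SDs, except BBCH77 node 10 and BBCH90 node 10. These 2 groups, of 2 kept libraries each, did not overlap, at 96.2 to 140 and 69.2 to 77.7 CPM. The lack of overlap is given as a value. The gene was not called in this step (log2 fold change -0.69, edgeR, adjusted p = 0.632), in which 33.9% of all genes were DEGs.

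The contrasts that share no library with BBCH63 nodes 2 and 5 were tested in edgeR over the 24 libraries. A DEG had to have an adjusted p under 0.05 and to change 2-fold or more. Of these 12 contrasts, 0 called VITVI11G00140, 0 had an unadjusted p under 0.05 and DESeq2 called 0. The lowest unadjusted p was 0.0579. Each of the 12 contrasts holds a group of BBCH77 or BBCH90, where the wide spread of this gene was known when it was selected. The lack of calls was thus partly set by the choice of the gene and is no evidence of equal levels. The paper also reports that the gene was lower in buds of the middle node than in basal buds only at flowering. For that pair of nodes the lack of a call at the later stages was therefore no new outcome. At BBCH77 the DEGs made up 4.89% of genes for nodes 5 vs 2, 1.6% for nodes 10 vs 2 and 0% for nodes 10 vs 5, and at BBCH90 0% for each of the 3 pairs of nodes. At an unadjusted p under 0.05 these last contrasts had 785 genes at BBCH77, and 1812, 2185 and 2088 genes at BBCH90 for nodes 5 vs 2, 10 vs 2 and 10 vs 5. DESeq2 called 1, 178, 131 and 153 genes in the same 4 contrasts.

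Nodes 5 and 10 had lower fitted levels than node 2 at both stages, with no call. At BBCH77 node 5 differed from node 2 by -1.62 on the log2 scale (standard error 0.96, edgeR adjusted p = 0.273) and node 10 by -1.81 (standard error 1.13, edgeR adjusted p = 0.357). At BBCH90 the values were -0.62 (standard error 0.94, adjusted p = 0.947) and -2.34 (standard error 1.16, adjusted p = 0.542; unadjusted p = 0.0579) by the same test of edgeR. The difference of nodes 10 and 5 was -0.19 (standard error 1.06) at BBCH77 and -1.72 (standard error 1.12) at BBCH90 on the log2 scale, with adjusted p values of 1 and 0.694 in edgeR. None of these passed. With standard errors near 1 on the log2 scale, a 2-fold change of this gene was about as large as its error. The contrast of nodes 5 and 2 at BBCH77 moved with single libraries, to -0.55 without node 2 replicate 1 (edgeR, adjusted p = 0.841), -2.15 without node 2 replicate 3 (adjusted p = 0.0806) and -3.28 without node 5 replicate 1 (adjusted p = 0.0965). At BBCH90 the same contrast turned to 0.33 without node 2 replicate 1.

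Over the season no step of the gene passed the test, and the errors were too wide to show a kept level. From BBCH77 to BBCH90 the log2 fold change was -0.15 (standard error 0.94, adjusted p = 0.895) at node 2, 0.84 (standard error 0.95, adjusted p = 0.454) at node 5 and -0.69 (standard error 1.16, adjusted p = 0.632) at node 10, by the edgeR test. At node 2 the value ran from -1.10 without BBCH90 replicate 1 to 0.91 without BBCH77 replicate 1, so its direction rested on single libraries. The shares of genes called in these steps were 34.4, 32.5 and 33.9%. At node 5 the outcome rested on BBCH77 replicate 1: without it the log2 fold change was 2.50 and the adjusted p = 0.0487 (edgeR). Averaged over nodes the value was 0.0003 (standard error 0.59, adjusted p = 0.9999), while 35.4% of genes were called. At node 10, BBCH77 vs BBCH63 gave 1.15 (standard error 1.17, adjusted p = 0.528; 9.62% of genes called) and BBCH90 vs BBCH63 gave 0.47 (standard error 1.16, adjusted p = 0.751; 32% called) in edgeR. The kept libraries of node 10 at BBCH77 lay above both of BBCH63. In a fit of these 2 groups alone, with 2 libraries each, the step was called with the same size (log2 fold change 1.15, standard error 0.21, adjusted p = 0.0211, edgeR). Such fits of node 10 also gave low adjusted p values for BBCH90 vs BBCH77 (-0.69, 0.0280) and BBCH90 vs BBCH63 (0.44, 0.0133) in edgeR. Both were under the 2-fold limit, and no share of all genes called is given for these fits. The steps that start from BBCH63 at nodes 2 and 5 share libraries with the choice of the gene and are given as values only. The log2 fold changes to BBCH77 and BBCH90 were 0.03 and -0.12 at node 2 and 1.19 and 2.03 at node 5.

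**Figure D2:**
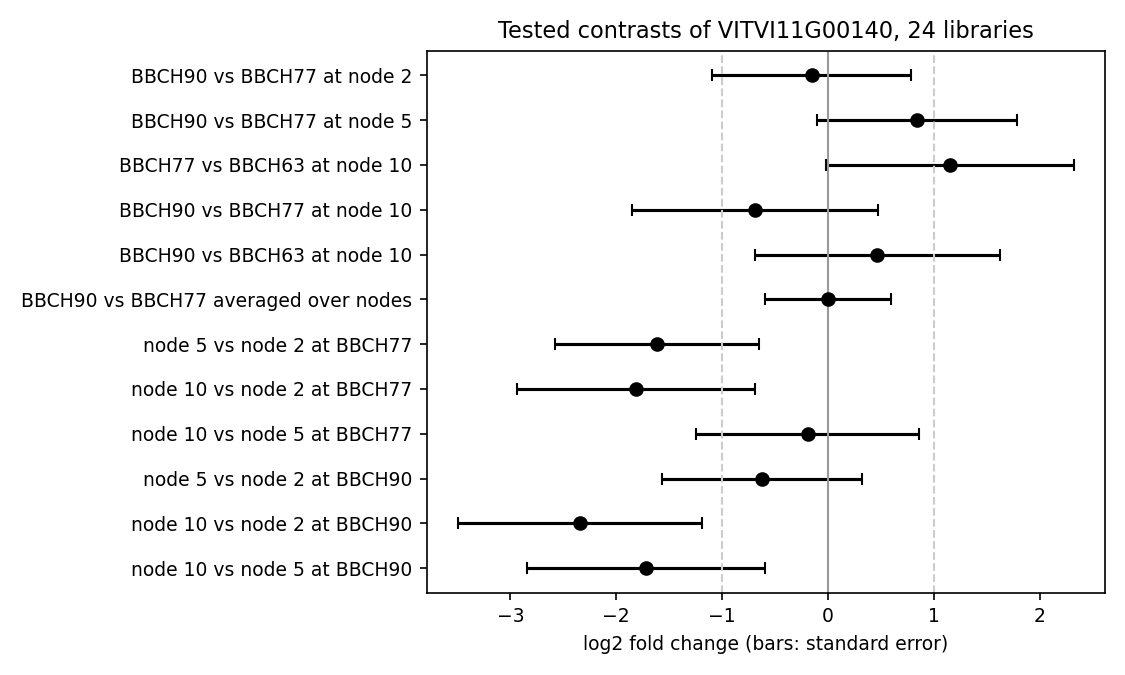
Log2 fold changes of VITVI11G00140 with standard errors from edgeR in the 12 tested contrasts over 24 libraries; dashed lines mark a 2-fold change. The largest value is -2.34 in node 10 vs node 2 at BBCH90, with an error of 1.16.

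The other genes of the qPCR behaved in different ways. VITVI18G02191 (ERF020), an ethylene-responsive transcription factor, ranged from 0.175 to 33.7 CPM. At BBCH77 it was at 19.97, 7.70 and 0.683 CPM in node 2 and at 2.11, 0.537 and 1.67 CPM in node 5, so its replicate 3 of node 2 was low as well. The reference gene VITVI19G00744 (UBC28), a ubiquitin-conjugating enzyme, varied 2.86-fold over the 27 columns, from 106 to 303 CPM, against 30.2-fold for VITVI11G00140. VITVI04G00665 (VvCOL1), a CONSTANS-like gene, varied 2.71-fold. The pooled SD within groups, over the 26 distinct columns and on the log2 scale, was 1.38 for VITVI11G00140, 1.31 for ERF020, and 0.25 for both UBC28 and VvCOL1, and the median over all genes was 0.307. By pooled SD, 246 of 22778 genes (1.08%) lay above VITVI11G00140. The wide spread of this gene was known when it was selected, so its place among all genes is a description only.

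The 7 flowering genes of the study were set beside it. Between nodes at BBCH77 and BBCH90, 0 of 7 were DEGs in any contrast by the edgeR test, where 4.89, 1.6 and 0% of all genes were called at BBCH77 and 0% in each contrast at BBCH90. From BBCH77 to BBCH90, VvVFL and VvTFL1A fell at node 2, VvVFL, VvTFL1A and VvELF4 fell and VvCOL1 rose at node 5, and VvTFL1A and VvELF4 fell at node 10. The other 5, 3 and 5 genes did not pass both limits. Over all genes, 23.5, 22.5 and 22.9% fell in these steps at nodes 2, 5 and 10, and 9.98% rose at node 5. The median log2 fold change of the 7 genes was -0.37, -0.32 and -0.27 at nodes 2, 5 and 10, against -0.05, -0.01 and -0.05 over all genes. VvFLC, the grapevine relative of the floral repressor that Polycomb silences in Arabidopsis, fell at node 10 from BBCH63 to BBCH77, at -1.10 ± 0.17 on the log2 scale (± standard error; edgeR, adjusted p = 0.000429). It was the only one of the 7 called in this contrast, in which 9.62% of all genes were called. In the same step VvFLC was at -0.64 at node 2 and -0.98 at node 5, under the 2-fold limit. The error at node 10 was far below the 1.17 of the ALP1-like gene in that contrast.

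The ALP1-like gene was set beside 717 other genes to see where it followed the basal buds. These were DEGs with a lower level in node 5 vs node 2 at BBCH63. The gene and the list were both expressed as the log2 difference from the mean of BBCH63 node 2. All DEGs lower in this contrast made up 3.12% of the 22999 genes tested. The list was drawn from the contrast that chose the gene, so this is a description. In BBCH77 node 2 replicate 3 the median of these genes was -1.16 and the gene was at -3.17, whereas replicates 1 and 2 were at 0.60 and 0.12 with the gene at 1.12 and -0.15. In that library, then, the list and the gene were low together. BBCH77 node 5 replicate 1 was different, since the list was at -1.14, close to the -1.31 and -1.21 of replicates 2 and 3, while the gene was at -0.29 against -3.13 and -3.26. At BBCH90 the list was between -2.19 and -1.12 in the 8 kept libraries, with its lowest value and that of the gene (-3.79) both in node 5 replicate 3. Its highest value and that of the gene (0.90) were both in node 2 replicate 1. In node 5 replicates 1 and 2 the list was at -1.54 and -1.83 while the gene was at -0.64 and 0.19, so the gene lay above the list there. The same held at node 2, where replicates 1 to 3 had the gene at 0.90, -1.18 and -0.88 and the list at -1.12, -1.69 and -1.77. In node 5 replicate 3 and the kept libraries of node 10 the gene lay below the list. The list was low at node 2 as well and overlapped with node 5, so it did not set basal buds apart at BBCH90.

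**Figure D3:**
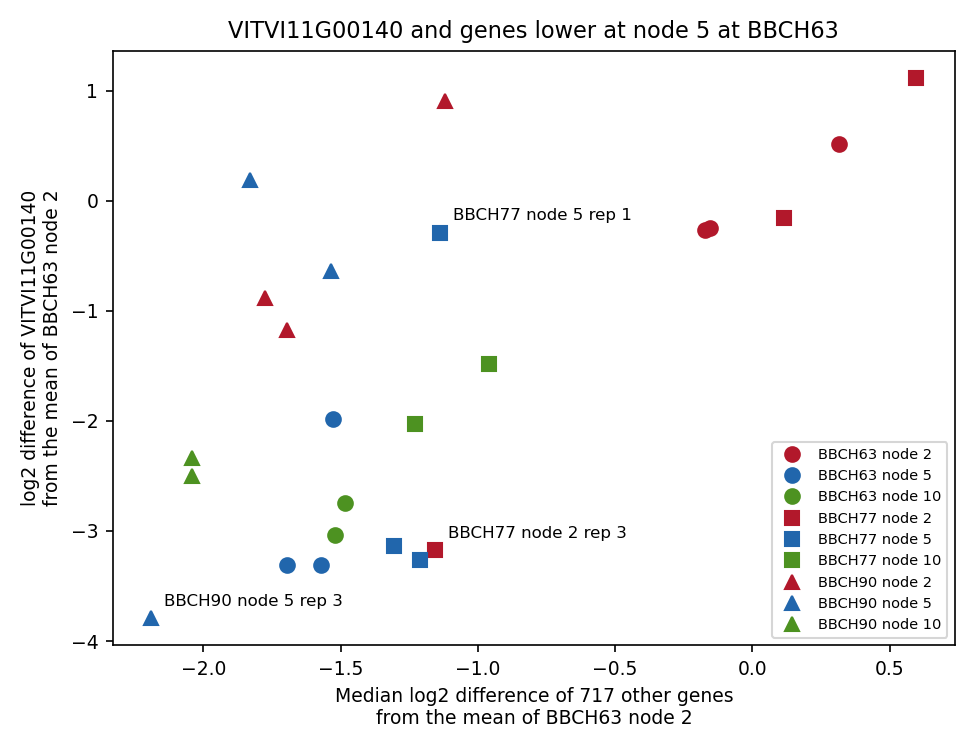
Log2 difference from the mean of BBCH63 node 2 for VITVI11G00140 (vertical axis) and for the median of 717 other genes lower at node 5 at BBCH63 (horizontal axis) in the 24 kept libraries, with colour for the node and shape for the stage. BBCH77 node 2 replicate 3 lies among the libraries of node 5, and BBCH77 node 5 replicate 1 has a high level of the gene with a low median of the list.

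Whole libraries were compared with each group by Pearson's r to its mean, leaving out the library itself, across the 3000 most variable genes, centred by gene and without VITVI11G00140. These are correlations across genes, which are no independent replicates. BBCH77 node 2 replicate 3, with the low ALP1-like level, correlated at 0.150 with its own group and at 0.882 with node 5. BBCH77 node 5 replicate 1, with the high level, correlated at 0.835 with its own group and at 0.427 with node 2. The former was thus closer to node 5 than to its own group, and the latter was closest to its own group. BBCH77 node 10 replicate 3, with 593 CPM, correlated best with BBCH90 node 2 at 0.870. BBCH63 node 10 replicate 3, with 42.1 CPM, correlated best with BBCH77 node 2 at 0.503. BBCH90 node 5 replicate 3 correlated at 0.817 with its own group, and at 0.821 with node 2 and 0.788 with node 10 of the same stage. The group means were taken over all 27 columns. That of BBCH90 node 10 therefore held the column equal to BBCH63 node 2 replicate 2. Its kept libraries reached only 0.528 and 0.597 with their own group, so resemblance to node 10 cannot be judged at this stage. The part of these profiles in the spread of the gene was not tested.

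It was then asked whether the spread narrows when every column from BBCH63 node 5 replicate 1 on is given the label of the next column of the table. The duplicated last column was left out of both labellings, which leaves 26 columns and 17 degrees of freedom within groups in each. The labels were kept as deposited everywhere else, and no groups were compared under the moved labels. The pooled SD of the ALP1-like gene went from 1.38 to 1.16 on the log2 scale, a ratio of 0.843. Over all genes the median ratio was 0.807, with a narrower spread in 81.1% of 22778 genes, and 56.1% of genes had a lower ratio than this one. The ratio of the gene was thus slightly above the median of all genes.

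The change differed between the stages. Columns also passed from one stage to the next with the move, so the SDs compared do not rest on the same columns. The degrees of freedom went from 6 to 5 at BBCH63, stayed at 6 at BBCH77 and went from 5 to 6 at BBCH90. At BBCH90 the pooled SD fell from 1.51 to 0.859, a ratio of 0.570 where the median of all genes was 0.944 and only 2.15% of genes had a lower one. The columns of node 5 would then hold 213, 252 and 446 CPM, 2.10-fold apart in place of 15.8-fold. The column with 28.2 CPM would join the 77.7 and 69.2 CPM of node 10, which widens from 1.12-fold to 2.76-fold. In node 2 the columns would hold 593, 733 and 173 CPM, with the same 4.23-fold range as before.

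At BBCH77 the pooled SD of the gene went from 1.79 to 1.69, a ratio of 0.943, although 77.3% of genes narrowed and their median ratio was 0.725. Node 10 narrowed from 6.16-fold to 3.44-fold as its column with 593 CPM left. In node 2 the low column of 43.4 CPM would be replaced by another low one of 42.1 CPM, labelled BBCH63 node 10 replicate 3, so that the range was 20.2-fold. Node 5 would hold 43.4, 320 and 44.6 CPM, with a range of 7.39-fold. At BBCH63 the SD was 0.53 as labelled and 0.54 after the move. Of the 9 groups, 4 had a smaller SD after the move, 4 a larger one, and node 2 at BBCH63 kept its columns. The wide spread of the gene at nodes 2 and 5 at BBCH77 was therefore present under both labellings.

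**Figure D4:**
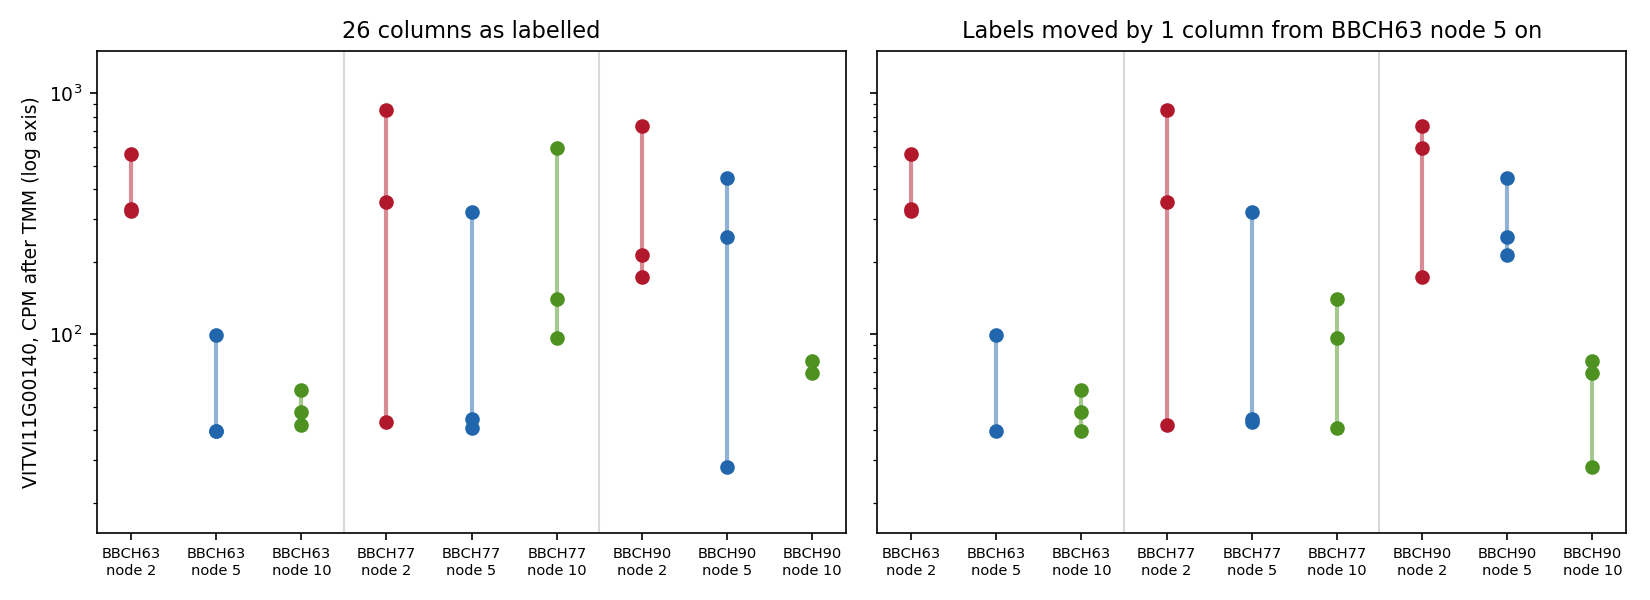
Expression of VITVI11G00140 in CPM after TMM normalization (log axis) by group in 26 columns, as labelled (left) and with each label moved by 1 column from BBCH63 node 5 on (right); points are columns and bars span the lowest to the highest. Node 5 at BBCH90 narrows from 15.8-fold to 2.10-fold, while node 2 at BBCH77 spans 19.6-fold on the left and 20.2-fold on the right.

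The genes with the most similar levels were then listed. Across the 24 kept libraries, 15 of 22998 genes had a Pearson r above 0.9 with VITVI11G00140 on the log2 CPM scale and 94 had one above 0.8, with a median of -0.02 over all genes. The points share the libraries and the differences between groups, so these values are descriptions. The 5 most similar genes were VITVI10G00271 (r = 0.956), VITVI03G00500 (0.956), VITVI10G00630 (0.935), VITVI14G01499 (0.931) and VITVI10G04137 (0.931), for which no product was available here. VITVI10G00271 held 398, 215 and 59.5 CPM in BBCH77 node 2, and 161, 52.7 and 53.9 CPM in node 5. VITVI03G00500 held 217, 72.0 and 9.09 CPM, and 48.7, 11.5 and 9.18 CPM, in the same groups. In both genes, replicate 3 was the low library of node 2 and replicate 1 the high library of node 5, as for the ALP1-like gene, which follows from their choice by r over these libraries. At BBCH90 node 5 replicate 3 was again the lowest of its group, with 86.9 CPM of the former gene and 3.60 CPM of the latter.

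**Figure D5:**
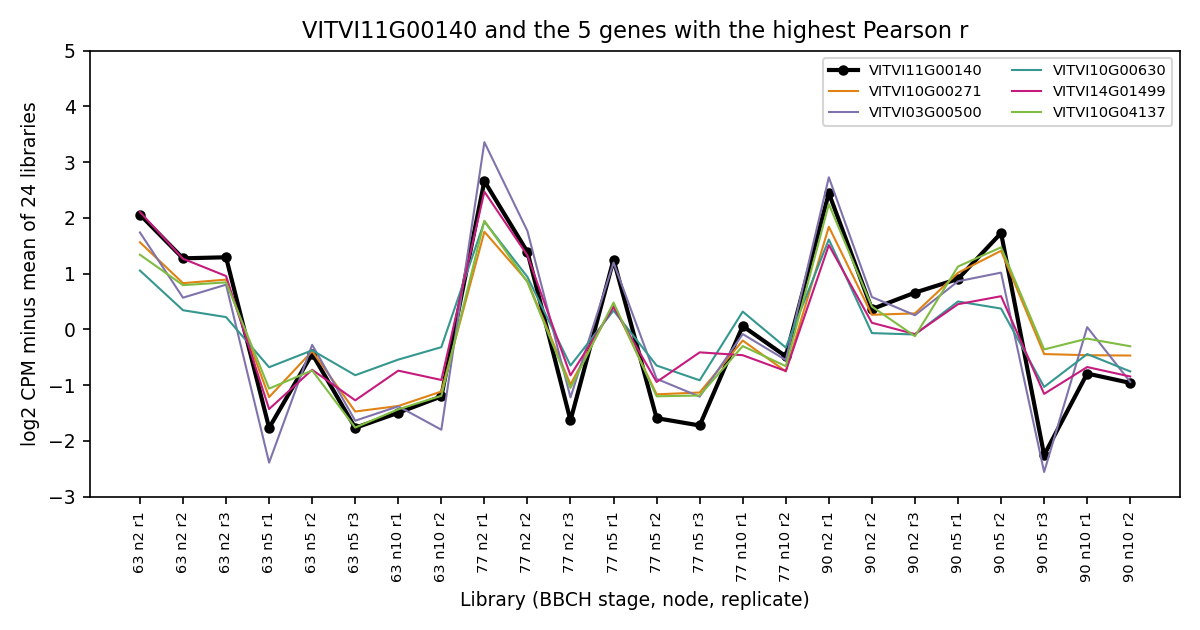
Log2 CPM of VITVI11G00140 (black) and of the 5 genes with the highest Pearson r across the 24 kept libraries, each minus its mean, in the order of stage, node and replicate. The lines rise and fall in the same libraries, among them the high BBCH77 node 5 replicate 1 and the low BBCH90 node 5 replicate 3.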

How the data were processed

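The deposited values are raw counts, whole numbers of reads per gene, for 27 bud libraries made with a stranded kit. The authors removed adaptors and used PN40024.v4 as the genome. The submitters' processing notes name FastQC, HISAT2 and HTSeq without versions. The strand setting and the handling of reads that map to several genes are not given in the sources used here, so reads shared with relatives of the ALP1-like gene, if any, cannot be told apart. Labels were kept as deposited, and no column lacked a sample.

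Low counts were removed by filterByExpr (minimum count 10), and the other genes went into the quasi-likelihood test of edgeR 4.0.16 (R 4.3.3) with 1 mean per group over 24 libraries (22999 genes), with Benjamini-Hochberg adjustment over all genes tested. Standard errors were obtained by dividing the absolute log2 fold change by the root of the F statistic. DESeq2 1.42.0 was an alternative, as were its size factors, no filter, all 27 libraries, a replicate block, only the groups compared, and leaving out single libraries. Replicate 3 of node 10 was left out at each stage as in the study. Spread and similarity were computed on log2 CPM (prior count 4). The spread and the moved labels used TMM over 27 libraries, and the similarity TMM over 24. Python 3.11.15 was used with pandas 2.3.3.

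The gene, the lists and the move of the labels were chosen with earlier results of these data known. The named genes are those of the qPCR, the 7 flowering genes of the study and the 5 genes with the highest Pearson r. Lists that need product names were not used here, since the reference table holds none for these identifiers. The qPCR was not analysed here.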

Additional observations from a re-analysis of the deposited data

How the results depend on the processing

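Over 12 contrasts and their alternatives, 121 of 144 values kept their sign and their side of the limits, 21 changed sign without being called and 2 became called. The called ones were BBCH77 vs BBCH63 at node 10 with only the groups of the contrast fitted (1.15, edgeR, adjusted p = 0.0211; 0.0211 to 0.774 over its alternatives) and BBCH90 vs BBCH77 at node 5 without BBCH77 node 5 replicate 1 (2.50). With libraries left out in turn, which leaves 1 library in a group of node 10 that is assumed to vary like the others, the log2 fold changes of BBCH90 vs BBCH77 were -1.10 to 0.91 at node 2, 0.053 to 2.50 at node 5, -0.94 to -0.39 at node 10 and -0.32 to 0.56 averaged over nodes. At BBCH77 they were -3.28 to -0.55 in node 5 vs node 2, -2.34 to -0.74 in node 10 vs node 2 and -0.63 to 1.47 in node 10 vs node 5. At BBCH90 the same contrasts ran from -1.41 to 0.33, -2.69 to -1.39 and -2.25 to -0.93. The averaged step changed sign, at values near 0, with DESeq2 (-0.037), its size factors (-0.036), no low-count filter (-0.0036) and all 27 libraries (-0.042). Node 10 vs node 5 at BBCH77 changed sign with all 27 libraries (1.03), where node 10 gains the column with 593 CPM. The other node 10 contrasts moved with that set too, to 2.48 for BBCH77 vs BBCH63 and 1.67 for BBCH90 vs BBCH63. Node 10 vs node 2 went from -1.81 to -0.59 at BBCH77 and from -2.34 to -1.24 at BBCH90, and node 10 vs node 5 at BBCH90 from -1.72 to -0.62, with no call. The column that BBCH90 node 10 gains in that set is the copy of BBCH63 node 2 replicate 2, at 326 CPM. The values of BBCH90 node 10 with all 27 libraries thus count a BBCH63 node 2 library under another label.

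The replicate block changed no call, with adjusted p values of 0.184 or more in edgeR, and turned BBCH90 vs BBCH77 at node 2 from -0.15 to 0.25. In the 4 contrasts of 3 pairs, deviations of same-numbered libraries correlated at 0.102 to 0.457 for replicates 1 and 3 but at -0.195 to -0.014 for replicate 2. Since not every pair was above 0.1, the numbers were not taken to pair the samples.

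The pooled SD of the gene was 1.38 with a prior count of 1, 1.34 without TMM, 1.38 in 24 libraries, 1.40 in 27, and 1.21 to 1.42 with 1 column left out. Of the 5 most similar genes, 2 were among the first 5 by Spearman's rho, 4 in all 27 libraries and 5 with a prior count of 1. The background counts moved by over 1.5 times with all 27 libraries, from 2212 to 1 DEGs in BBCH77 vs BBCH63, 7799 to 0 in BBCH90 vs BBCH77 and 7350 to 691 in BBCH90 vs BBCH63 at node 10, and at BBCH77 from 1124 to 0 in node 5 vs node 2 and 367 to 0 in node 10 vs node 2, the last being 853 in DESeq2. P-values measure the spread between the libraries of each group as labelled, all from pools of buds of 1 vineyard and season. If labels are displaced, this spread also holds differences between nodes and stages.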
